A study of Homo sapiens with 4 samples.

Results

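Fibroblast growth factor (FGF) ligand genes and the genes of their secreted binding proteins were examined in AGS, an established cell line from a human stomach adenocarcinoma. The set was chosen by gene name and holds 10 genes of the 51103 in each table, namely FGF1, FGF2, FGF5, FGF9, FGF11, FGF18, FGF19, FGF21, FGFBP1 and FGFBP3. Polyadenylated RNA was sequenced from cells given recombinant human FGF2 protein at 20 ng/mL and harvested after 24 h (group FGF2, 2 libraries) and from cells labelled NC (2 libraries), an abbreviation left unexplained in the labels. Both groups were labelled as AGS cells in serum-containing DMEM. The NC libraries carry the same treatment text, FGF2 included, so the agent or vehicle given to NC cells is unknown. The groups follow the titles.

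The libraries held 13790335 and 27598608 counts in the FGF2 group and 14073340 and 27325697 counts in the NC group. In each group library 1 exceeded library 2 at only 2 genes (of 22043 with a count in FGF2 and 22485 in NC). The chi-square per gene between a group's libraries was 0.771 for FGF2 and 0.764 for NC among genes of 10 to 1000 counts, below the value near 1 that separate reads would give. The libraries of a group therefore differed by less than the sampling noise, with the counts of library 1 nested in those of library 2, and were counted as 1 sample (n = 1). Hence no p-value is given. The labels do not say whether the further reads of library 2 came from a separate culture, so the disjoint read sets may or may not be separate samples. Levels are those of library 2 unless stated. Further ratios came from disjoint read sets of each group, library 1 and library 2 less library 1. A gene was called higher or lower where both FGF2 read sets lay at least 1.5-fold beyond both NC read sets on one side. Intervals are exact 95% Clopper-Pearson intervals of the counts for ratios and exact Poisson intervals for levels. They include counting error alone and are narrower than the true error, since a group's disjoint read sets differed by a mean chi-square of 2.42 per gene in FGF2 and 2.46 in NC.

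FGFs are secreted proteins that bind heparan sulfate on cell surfaces and activate FGF receptor tyrosine kinases, mostly through the ERK kinase cascade. FGF1 and FGF2 lack a classical signal peptide and leave cells by an unconventional route. FGF19 and FGF21 act as hormones that need a Klotho co-receptor, and FGF11 belongs to a group of FGF homologous factors that stay inside cells and bind voltage-gated sodium channels. FGFBP1 and FGFBP3 are secreted carriers that release FGFs from heparan sulfate in the matrix. The added FGF2 is a protein, so FGF2 reads report the cells' own gene.

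The data showed 1 ligand transcript, FGF2, well above the rest, and a change in the order of those below it. FGF5 and FGF1 were higher in the FGF2 sample, FGF18 was lower, and FGF2 itself and FGFBP3 met neither bound. Of the 10 genes, 9 had a count in at least 1 library and 5 passed the filter on low counts. Among those 5, 2 were called higher and 1 lower, where 3.89% of the 15030 genes tested were called higher and 7.92% lower. Calls were more frequent among genes of low counts. Below a mean of 200 counts, a limit chosen after seeing the data, 5.52% of 5218 genes were called higher and 14.7% lower. FGF5 passed the filter only through the FGF2 libraries and FGF18 only through the NC libraries, so a difference was built into their passing. The count of calls and the ranks of these 2 genes are therefore descriptions.

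The sequences before the starts of the genes that stood apart are shown for reference, since the comparison turns on these loci. Each is the 250 bases before a RefSeq start (GRCh38.p14), 5′ to 3′ on the gene's strand, and capitals mark every match to the motifs searched. FGF5, the ligand gene with the highest ratio, has the window chr4:80266338-80266587 on the plus strand at its outermost start. Another annotated FGF5 start has the window chr4:80268018-80268267, with 47.2% G and C and no motif match, which is not printed. FGF1 has several annotated starts, and the outermost (chr5:142698071-142698320, minus strand) and innermost (chr5:142644240-142644489, minus strand) are given. The innermost was chosen because it held a motif match. Another FGF1 window (chr5:142686091-142686340, minus strand) also held a match, to GGGCGG, and is not printed. FGF18, with the lowest ratio of the 5 members past the filter, has chr5:171419397-171419646 on the plus strand, and FGF2, the most abundant, chr4:122826581-122826830 on the plus strand.
FGF5: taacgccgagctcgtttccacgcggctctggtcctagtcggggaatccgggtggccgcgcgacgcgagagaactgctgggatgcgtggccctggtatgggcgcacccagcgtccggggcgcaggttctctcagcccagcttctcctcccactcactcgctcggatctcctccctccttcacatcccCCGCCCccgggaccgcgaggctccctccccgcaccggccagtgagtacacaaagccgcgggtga
FGF1, outermost start: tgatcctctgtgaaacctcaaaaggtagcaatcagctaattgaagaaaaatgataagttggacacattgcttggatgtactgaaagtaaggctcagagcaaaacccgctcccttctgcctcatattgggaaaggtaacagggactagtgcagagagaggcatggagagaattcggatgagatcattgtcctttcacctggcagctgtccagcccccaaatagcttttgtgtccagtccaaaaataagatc
FGF1, innermost start: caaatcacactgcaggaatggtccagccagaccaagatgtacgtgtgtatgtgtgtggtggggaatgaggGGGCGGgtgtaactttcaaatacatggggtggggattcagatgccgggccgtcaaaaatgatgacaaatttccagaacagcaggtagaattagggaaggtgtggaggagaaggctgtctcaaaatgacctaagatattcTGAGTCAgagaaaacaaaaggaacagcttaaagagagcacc
FGF18: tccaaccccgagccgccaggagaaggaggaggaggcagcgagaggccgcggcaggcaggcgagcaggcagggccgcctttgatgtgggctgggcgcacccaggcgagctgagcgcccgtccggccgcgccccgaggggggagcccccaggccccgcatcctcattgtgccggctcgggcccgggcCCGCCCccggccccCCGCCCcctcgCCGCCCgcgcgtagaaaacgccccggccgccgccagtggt
FGF2: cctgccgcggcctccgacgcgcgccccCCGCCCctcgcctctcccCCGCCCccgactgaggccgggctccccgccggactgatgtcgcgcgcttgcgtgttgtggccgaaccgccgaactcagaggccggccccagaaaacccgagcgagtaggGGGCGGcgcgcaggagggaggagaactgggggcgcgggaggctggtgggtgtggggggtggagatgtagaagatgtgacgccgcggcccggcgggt

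These windows differed in base composition. G and C made up 78.8% of the FGF18 window, 75.2% of the FGF2 window and 68.8% of the printed FGF5 window, against a median of 58.0% over all 34943 windows. They made up 44.8% and 47.2% of the outermost and innermost FGF1 windows. In the FGF1 windows not printed they made up 45.6% and 60.8%, so FGF1 windows lay on both sides of the median. Both strands were searched for TGANTCA (bound by AP-1 factors), CCGGAAG (ETS factors), CACGTG (E-box), TGACGTCA (cyclic AMP response element) and GGGCGG (GC box), and no matches of different motifs overlapped in the printed windows. The only AP-1 match in the 14 windows of the 8 matched genes was TGAGTCA in the innermost FGF1 window, its first base 41 bases before the start. TGANTCA occurred in 6.59% of all windows. No member window held the ETS motif, the E-box or the cyclic AMP response element, present in 8.48%, 6.32% and 1.63% of all windows. GC boxes were present 3 times each in the FGF18 and FGF2 windows. They were present 1 time each in the printed FGF5 window, the innermost FGF1 window and 1 FGF1 window not printed. Of all windows, 42.5% had at least 1. A match describes letters only, and which start the AGS cells use was not measured.

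FGF2 (ENSG00000138685, chromosome 4, 122826708 to 122898236, GRCh38) encodes the basic FGF that was also the added protein. Its transcript had 401 and 840 counts in the FGF2 libraries, against 518 and 994 counts in the NC libraries. Its level was 4.29 and 4.49 FPKM in the FGF2 libraries, against 5.43 and 5.37 FPKM in the NC libraries. The disjoint read sets held 401 and 439 counts in FGF2, against 518 and 476 counts in NC. The gap was small: the log2 ratio was -0.17 (95% counting interval -0.30 to -0.04), and the read sets gave -0.24 and -0.10, short of the 1.5-fold bound. FGF2 shares 11.9% of its exon sequence with NUDT6 on the opposite strand, and the library kit does not mark strand, so reads there cannot be told apart. NUDT6, a nudix hydrolase gene, had only 17 and 27 counts in the FGF2 libraries, against 26 and 48 counts in the NC libraries.

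FGF1 (ENSG00000113578, chromosome 5, 142592178 to 142698070) encodes the acidic FGF, which can bind all FGF receptor types. It had 67 and 150 counts in the FGF2 libraries, against 33 and 57 counts in the NC libraries. Its level was 0.921 and 1.03 FPKM in the FGF2 libraries, against 0.445 and 0.395 FPKM in the NC libraries. The disjoint read sets held 67 and 83 counts in FGF2, against 33 and 24 counts in NC. The ratio was 2.75-fold, a log2 ratio of 1.46 (1.02 to 1.93). The read sets gave 1.13 and 1.79, so the direction held in both while the size differed. FGF1 ranked 253 from the highest log2 ratio of 15030 genes.

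FGF5 (ENSG00000138675, chromosome 4, 80266599 to 80336680) encodes a secreted ligand best known for ending the growth phase of hair follicles. It had 33 and 73 counts in the FGF2 libraries, against 6 and 12 counts in the NC libraries. Its level was 0.399 and 0.441 FPKM in the FGF2 libraries, against 0.0711 and 0.0732 FPKM in the NC libraries. The disjoint read sets held 33 and 40 counts in FGF2, against 6 and 6 counts in NC. The ratio was 6.17-fold, a log2 ratio of 2.63 (1.79 to 3.69), with 2.48 and 2.66 from the read sets. FGF5 ranked 67 from the highest of 15030 genes, a description only, since it passed the filter only through the FGF2 libraries. It shares 2.3% of its exon sequence with CFAP299 on the same strand, which had 0 counts in every library.

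FGF18 (ENSG00000156427, chromosome 5, 171419656 to 171457623) encodes a ligand of the FGF8 subfamily known from bone and lung development. It had 4 and 12 counts in the FGF2 libraries, against 25 and 44 counts in the NC libraries. Its level was 0.146 and 0.219 FPKM in the FGF2 libraries, against 0.894 and 0.811 FPKM in the NC libraries. The disjoint read sets held 4 and 8 counts in FGF2, against 25 and 19 counts in NC. The log2 ratio was -1.76 (-2.86 to -0.86), or 3.39-fold lower in the FGF2 sample. The read sets gave -2.39 and -1.18, a wide spread at such counts. FGF18 ranked 348 from the lowest of 15030 genes, a description only, since it passed the filter only through the NC libraries.

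**Figure D1:**
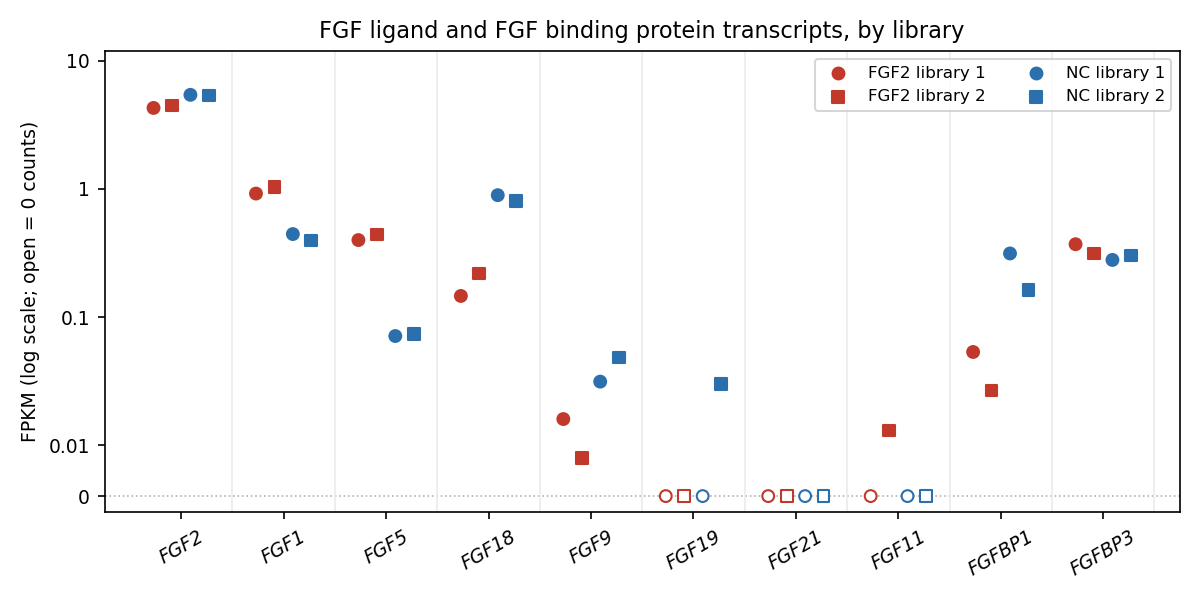
Levels of the 10 transcripts in FPKM (log axis, with open symbols on the lowest line for 0 counts) in the FGF2 libraries (red, left) and NC libraries (blue, right), circles for library 1 and squares for library 2. FGF2 lies above 4 FPKM in every library, FGF1 and FGF5 lie higher in the FGF2 libraries, and FGF18 lies lower.

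The remaining ligands were near or at 0. FGF9 (ENSG00000102678, chromosome 13, 21671383 to 21704498), a ligand of epithelial and mesenchymal exchange in development, had 1 and 1 counts in the FGF2 libraries, against 2 and 6 counts in the NC libraries, a log2 ratio of -2.06 with a counting interval of -8.04 to 0.53 that includes 0. The hormone FGF19 (ENSG00000162344, chromosome 11, 69698232 to 69704642), an ileal regulator of bile acid synthesis, had 0 and 0 counts in the FGF2 libraries, against 0 and 2 counts in the NC libraries, and the Poisson interval of 0 counts reached 0.0546 FPKM in FGF2 library 2. FGF21 (ENSG00000105550, chromosome 19, 48755559 to 48758333), a hormone of fasting and metabolic stress, had 0 counts in all 4 libraries, for which the Poisson interval reached 0.102 FPKM in FGF2 library 2 and 0.103 FPKM in NC library 2. Expression of these genes was thus not detectable, or not measurable as a difference, at this depth. The Klotho co-receptor genes were also near 0, with KL at 0 and 0 counts in the FGF2 libraries against 2 and 6 counts in the NC libraries, and KLB at 3 and 4 against 6 and 6.

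FGF11 (ENSG00000161958, chromosome 17, 7438273 to 7444937), the intracellular homologous factor, had 0 and 2 counts in the FGF2 libraries, against 0 and 0 counts in the NC libraries. Its count is uncertain, because 75.0% of its exon sequence is shared with AC113189.4 on the same strand, which had 0 counts in every library, and the handling of reads in shared exons was not stated in the labels. Of 9 genes of the sodium channel subunits that such factors bind, 2 passed the filter and both met neither bound. SCN8A stood at 2.86 FPKM in the FGF2 sample against 3.63 FPKM in the NC sample.

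Of the carriers, FGFBP3 (ENSG00000174721, chromosome 10, 91906589 to 91909483) was the better measured. It had 13 and 22 counts in the FGF2 libraries, against 10 and 21 counts in the NC libraries, and 0.370 and 0.313 FPKM against 0.279 and 0.302 FPKM. The log2 ratio was 0.14 (-0.79 to 1.07), with 0.48 and -0.26 from the read sets, so no direction was detectable. It shares 10.6% of its exon sequence with AL359198.1 on the opposite strand, which had 0 counts in every library. FGFBP1 (ENSG00000137440, chromosome 4, 15935569 to 15938740), which promotes FGF2 release from the matrix, had 1 and 1 counts in the FGF2 libraries, against 6 and 6 counts in the NC libraries. All 6 NC counts of library 2 were those of library 1, so the other NC reads held 0, and the log2 ratio was -2.06 (-8.04 to 0.53).

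**Figure D2:**
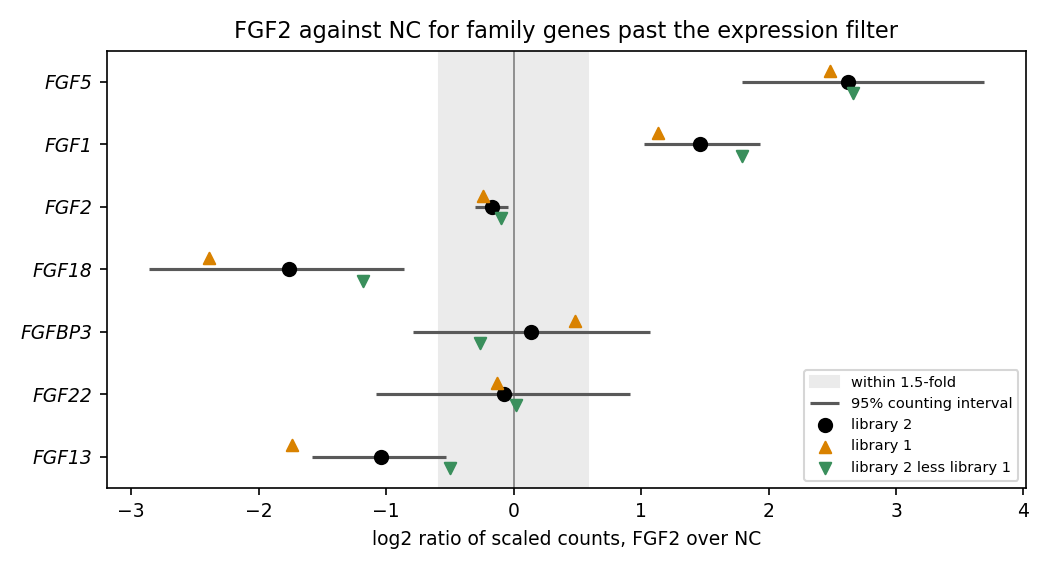
Log2 ratios, FGF2 over NC, of family genes past the filter on low counts, from library 2 (black, with 95% counting intervals), library 1 (up triangles) and library 2 less library 1 (down triangles). FGF5 and FGF1 lie to the right of the grey band of 1.5-fold and FGF18 to its left in all 3 ratios, while FGF2 and FGF22 lie inside it.

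The order of the levels differed between the groups. In the FGF2 sample it was FGF2 (4.49 FPKM, Poisson interval 4.19 to 4.81), FGF1 (1.03, 0.872 to 1.21), FGF5 (0.441, 0.346 to 0.554), FGFBP3 (0.313, 0.196 to 0.474) and FGF18 (0.219, 0.113 to 0.382). The intervals of FGF5 and FGFBP3 overlapped, as did those of FGFBP3 and FGF18 and those of FGF5 and FGF18, so these genes were not separated. In the NC sample it was FGF2 (5.37 FPKM, 5.04 to 5.71), FGF18 (0.811, 0.589 to 1.09), FGF1 (0.395, 0.300 to 0.512), FGFBP3 (0.302, 0.187 to 0.462), FGFBP1 (0.162, 0.0593 to 0.352) and FGF5 (0.0732, 0.0378 to 0.128). There FGF1 and FGFBP3, FGF1 and FGFBP1, FGFBP3 and FGFBP1, and FGFBP1 and FGF5 were not separated. Among protein-coding genes with a count, FGF2 stood at the 53.5th percentile of FPKM in the FGF2 sample and the 56.0th in the NC sample, FGF1 at the 31.9th and 22.9th, FGF5 at the 24.6th and 11.7th, and FGF18 at the 19.4th and 28.7th.

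Summed over the 18 genes of secreted FGFs, the transcripts came to 6.04 and 6.53 FPKM in the FGF2 libraries, against 7.33 and 7.10 FPKM in the NC libraries. FGF2 made up 71.1% and 68.8% of the sum in the FGF2 libraries, against 74.2% and 75.6% in the NC libraries. The share of FGF1 was 15.3% and 15.8% in the FGF2 libraries, against 6.07% and 5.57% in the NC libraries, and that of FGF5 was 6.61% and 6.75% against 0.970% and 1.03%. FGF18 made up 2.42% and 3.35% in the FGF2 libraries, against 12.2% and 11.4% in the NC libraries. Without FGF2, the sum was 1.74 and 2.04 FPKM in the FGF2 libraries, against 1.89 and 1.73 FPKM in the NC libraries. Neither group had the higher sum in both libraries, while the make-up differed. The libraries of a group are nested, so these are not replicate comparisons.

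**Figure D3:**
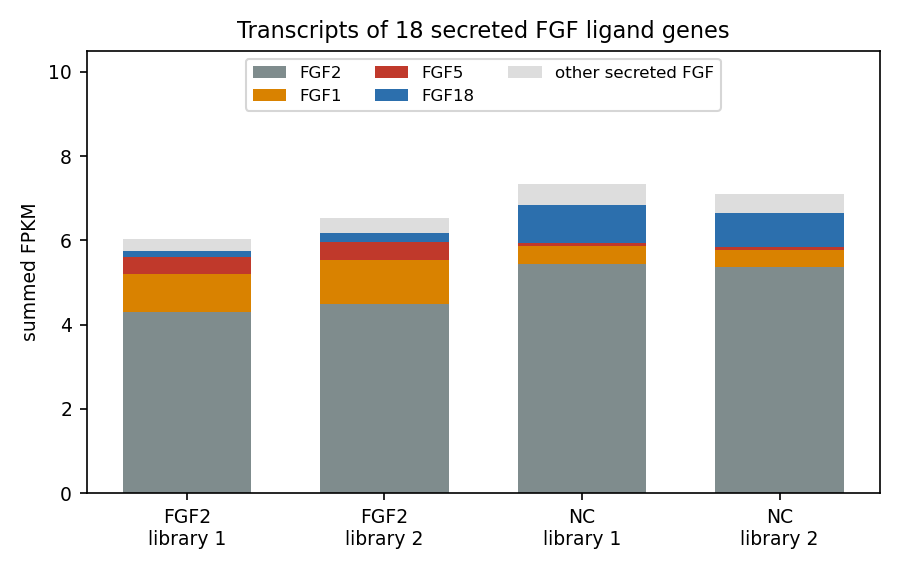
Summed FPKM of 18 secreted FGF ligand genes in each library, stacked by gene (linear axis from 0). FGF2 fills most of each bar, and the FGF1 and FGF5 segments are larger and the FGF18 segment smaller in the FGF2 libraries.

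The other 15 genes of the ligand and carrier family added little. Of these, 8 had 0 counts in every library, among them FGF7 and FGF10, the classical ligands that stromal cells supply to epithelia. The filter was passed by FGF22 and FGF13, and both met neither bound. FGF22, a ligand of the FGF7 subfamily, had 10 and 18 counts in the FGF2 libraries, against 12 and 20 counts in the NC libraries (log2 ratio -0.08, -1.08 to 0.91). FGF13, an intracellular homologous factor, had 15 and 47 counts in the FGF2 libraries, against 56 and 102 counts in the NC libraries (log2 ratio -1.04, -1.58 to -0.53). Its read sets gave -1.74 and -0.50, the second short of 1.5-fold.

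**Figure D4:**
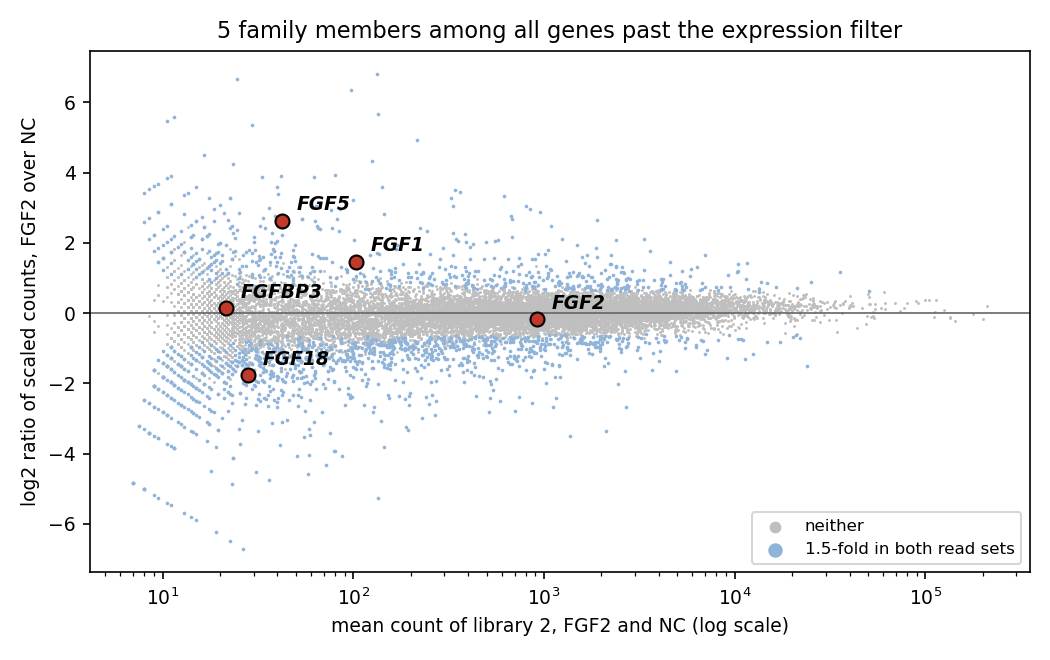
Log2 ratio, FGF2 over NC, against the mean count of libraries 2 (log axis) for the 15030 genes past the filter, with genes called at 1.5-fold in both read sets in pale blue and 5 family members in red. FGF5 and FGF1 lie above the bulk of genes of like counts, FGF18 below it, and FGF2 and FGFBP3 within it. FGF5 passed the filter only through the FGF2 libraries and FGF18 only through the NC libraries.

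Neighbouring genes are the nearest protein-coding gene on each side, given here only for the 5 members past the filter. FGF1 lies 265.7 kb from SPRY4, a feedback inhibitor of FGF signalling, and 72.3 kb from ARHGAP26. SPRY4 had 516 and 1115 counts in the FGF2 libraries, against 54 and 116 counts in the NC libraries (10.1-fold, log2 ratio 3.33), and was called higher. ARHGAP26 stood at 0.45 (0.30 to 0.59) and was not called. FGF18 lies 8.5 kb from NPM1, which encodes the nucleolar protein nucleophosmin. NPM1 stood at 673.0 FPKM in the FGF2 sample against 473.2 FPKM in the NC sample, a log2 ratio of 0.60 of opposite sign to that of FGF18, and met neither bound across read sets. SMIM23, 324.8 kb away on the other side of FGF18, and the neighbours of FGF5, PRDM8 and BMP3, had at most 2 counts in any library. FGF2 lies 81.8 kb from BBS12, a chaperonin-like gene of cilia, at 0.475 FPKM in the FGF2 sample against 0.672 FPKM in the NC sample. On its other side, SPATA5 at 24.8 kb stood at 1.94 FPKM in the FGF2 sample against 1.93 FPKM in the NC sample. The genes beside FGFBP3 were well expressed and close between the groups, with TNKS2, a tankyrase gene, at 14.1 FPKM in the FGF2 sample against 14.4 FPKM in the NC sample, and BTAF1 at 15.1 against 14.5.

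The partners of the ligands were read from lists of receptors, of ligand export and heparan sulfate genes, and of feedback genes. Over all genes tested, 3.89% were called higher and 7.92% lower. Of 7 receptor and co-receptor genes, 5 were tested, 0 were higher and 2 lower, FGFR2 at a log2 ratio of -2.40 and FGFR3 at -1.25, with a median of -0.13. Of 11 genes of ligand export, heparan sulfate trimming and ligand cleavage, 8 were tested, 0 were higher and 2 lower, with a median of -0.50. They were SULF1, an extracellular enzyme that removes sulfate from heparan sulfate, and HPSE, the heparanase that cuts its chains. SULF1 had 48 and 77 counts in the FGF2 libraries, against 262 and 463 counts in the NC libraries (-2.51, -2.88 to -2.17). HPSE had 100 and 216 counts in the FGF2 libraries, against 288 and 547 counts in the NC libraries (-1.27, -1.50 to -1.04). With no scaling beyond the total count, 4 of these 8 were lower. Over all 15030 genes tested, 1425 were lower in that setting, against 1190 in the main setting.

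Of 13 feedback and target genes of FGF and ERK signalling, 12 were tested, 11 were higher and 0 lower. The share called higher over all genes tested was 3.89%. The median log2 ratio of the list was 1.71 against -0.00 over all genes tested. SPRY4 (3.33) and the phosphatase gene DUSP4 (2.76) were among the 3 highest. These lists were chosen with earlier results of these data known, so their direction is a description.

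**Figure D5:**
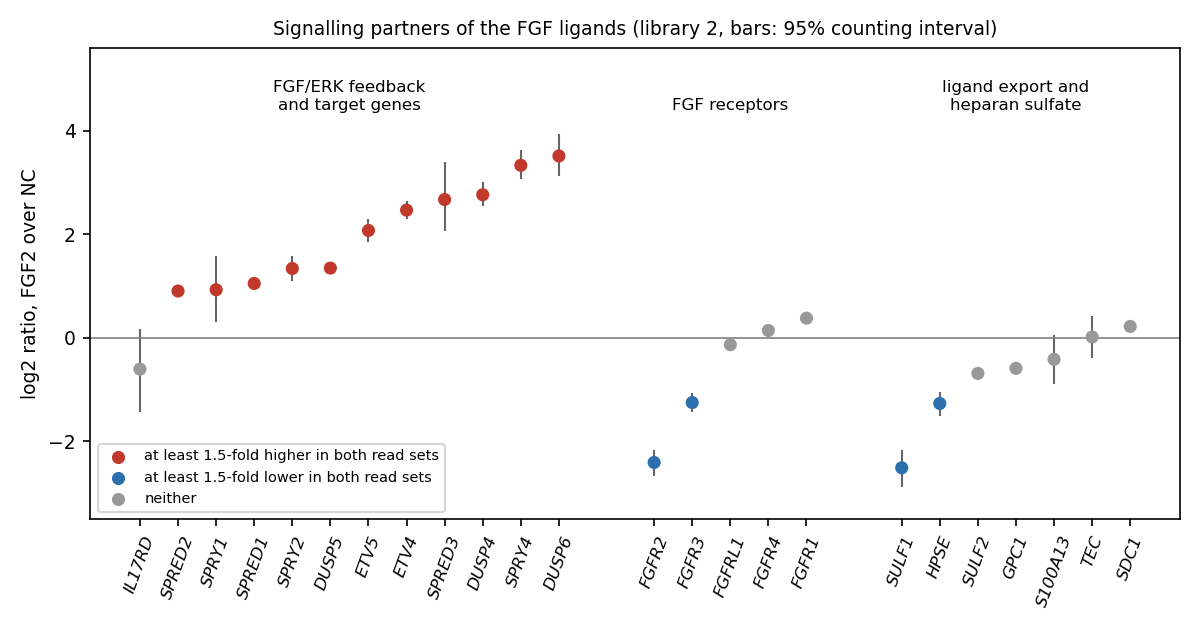
Log2 ratios, FGF2 over NC, of genes past the filter in 3 lists of FGF signalling partners (1 uncalled gene not shown), with 95% counting intervals, red for genes called higher, blue for lower and grey for neither. In the feedback list 11 of 12 genes are called higher, and in each of the other lists 2 genes are called lower. Over all genes tested, 3.89% were called higher and 7.92% lower.

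Markers were read to check the label of the cells. The keratin genes of simple epithelia were high in the FGF2 and NC samples, in that order, with KRT8 at 190.6 and 270.3 FPKM, KRT18 at 199.1 and 193.0 FPKM and KRT19 at 47.6 and 27.3 FPKM. The other epithelial markers were low: EPCAM stood at 0.518 and 1.19 FPKM, CDH1 at 0.0235 and 0.118 FPKM, CLDN4 at 0.462 and 0.654 FPKM and CLDN7 at 0.145 and 0.162 FPKM. Of 7 epithelial markers, 6 passed the filter, 1 was higher (KRT19) and 0 lower, where 3.89% of all genes tested were higher. Of 11 fibroblast markers, 5 passed the filter, 0 were higher and 3 lower (COL1A1, COL3A1 and PDGFRB), where 7.92% of all genes tested were lower. The summed level of these 11 markers was 84.4 and 84.0 FPKM in the FGF2 libraries, against 141.6 and 144.8 FPKM in the NC libraries. It was mostly COL1A1, PDGFRB and THY1. COL3A1 had 6 and 6 counts in the FGF2 libraries, against 65 and 137 counts in the NC libraries. DCN had 0 and 0 counts in the FGF2 libraries, against 3 and 8 in the NC libraries, and LUM 0 and 0 against 8 and 12. POSTN had 0 and 0 counts in the FGF2 libraries, against 0 and 2 in the NC libraries, while PDGFRA had 2 and 3 against 0 and 0. COL1A2 and FAP had 0 counts in every library, and THY1 and ACTA2 met neither bound. Of 5 endothelial markers 2 passed, and of 6 blood and immune markers 1 passed, all meeting neither bound. The markers thus did not settle the label of the cells. The keratins were high, the other epithelial markers were low, and COL1A1, PDGFRB and THY1 were detected. In such bulk RNA, fewer cells of a type and less RNA per cell cannot be told apart. The part of these markers in the ligand values was not tested.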

How the data were processed

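Gene tables of 4 AGS libraries were used. The deposited counts are raw read counts per gene and the deposited FPKM are the authors' values normalized for gene length and library size, per the file headers. The submitters' processing notes list HISAT2, HTSeq 0.13.5 and GRCh38 but no annotation release. The exon length of GENCODE release 29 lay within 1 base of the length implied by the FPKM at 15181 of 15222 genes (99.73%) of at least 10 counts, so its coordinates and exon sharing were used. Library totals ran from 13790335 to 27598608 counts.

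Genes were kept by filterByExpr (edgeR 4.0.16, minimum count 10) and scaled with edgeR's TMM factors. Log2 ratios were computed from library 2 with 0.5 added to each count. The edgeR quasi-likelihood test was not used, because the libraries of a group share reads and count as 1 sample. The size rule was tested on simulated counts with Poisson noise alone. The disjoint read sets of a group differed by more than such noise, so that test does not give the error rate of the rule here. Alternatives were total-count and DESeq2 1.42.0 scaling, other folds, filters, read sets and FPKM pseudocounts of 0.1 and 1. All 10 members are named, neighbours by distance, and of other lists at most the 3 highest and lowest called. ARHGAP26, the co-receptors, SCN8A and uncalled markers were named after their values were seen. Members and lists were chosen with earlier results of these data known. Promoter windows are RefSeq's (GRCh38.p14), found for 8 of 10 members by symbol. Values of some list genes are not reported here.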

Additional observations from a re-analysis of the deposited data

How the results depend on the processing

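The direction of FGF1, FGF5 and FGF18 was the same under total-count and DESeq2 scaling, with either read set, with the mean of both libraries and on the FPKM scale. The size rule already required both read sets to lie on one side, so agreement across read sets and their mean was fixed in advance. Scaling moved the ratios too little to reverse them, with FGF1 at 1.46 in the main setting and 1.37 with total counts. With FPKM and a pseudocount of 0.1 the log2 ratio of FGF5 was 1.64, and with a pseudocount of 1 those of FGF1, FGF5 and FGF18 were 0.54, 0.43 and -0.57, because the pseudocount exceeds most of these levels. Genes called higher and lower numbered 584 and 1190, and 1820 and 2456 at a fold of 1.2, 264 and 511 at a fold of 2, and 1410 to 1503 and 2428 to 2476 when 1 read set had to pass. Among genes averaging 50 or more counts in the read sets they were 345 and 569, and 1 member was called higher (FGF1) and 0 lower, because FGF5 and FGF18 have fewer counts. With no filter beyond 1 count they were 1163 and 2009, and 2 members were called lower, FGF9 in addition to FGF18, on 1 and 6 counts in the FGF2 and NC samples. Of 144 counts of calls over the other lists and settings, 127 were within 1.5 times the main count and 17 were not. Most of the main counts were 0, and 0 against 0 was taken as within, so this share says little about stability. No paired analysis was possible because each group counts as 1 sample and the results come from no test, so the edgeR fit with a replicate block was not run. Depth limits FGF9, FGF11, FGF19, FGF21 and FGFBP1 most.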
